A study of Rattus norvegicus with 16 samples.

Results

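The Z-disc and stretch response genes described here are 7 of the 17085 genes in the deposited tables: Ankrd1, Ankrd23, Xirp1, Xirp2, Csrp3, Fhl1 and Nmrk2. They were taken by gene name, all 7 had a row, and all 7 were among the 11376 genes that passed a filter on low counts. Expression was measured by bulk RNA sequencing of the infarct zone of rat hearts, with 4 libraries in each of 4 groups. In MI_stiff and MI_soft, the left anterior descending coronary artery of rats was tied off and the heart was treated with a stiff or a soft hydrogel, a water-swollen polymer network given, per the series title, by injection into the myocardium. MI rats had the ligation without a hydrogel, and Sham rats were the controls of the surgery. The study asked how hydrogel stiffness bears on the treatment of ischemic hearts. The labels used here give no strain, age, sex or time after ligation, do not say whether MI rats received an injection of vehicle, and do not name the animal behind a library, so the p-values cover the spread among libraries, some of which may be technical. The RNA extraction label also names MI/R, and no source used here says whether flow was restored.

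The Z-disc anchors the actin filaments of neighbouring sarcomeres and the ends of titin, the elastic protein that carries passive tension in heart muscle. Several proteins at and near the Z-disc move to the nucleus or change in level when a cardiomyocyte is stretched, and are therefore used as markers of mechanical load. Ankrd1 (also called CARP) and Ankrd23 (DARP) are muscle ankyrin repeat proteins that bind titin near its N2A element and are found in the nucleus as well. Csrp3 (muscle LIM protein) and Fhl1 are built of LIM domains and have been assigned to stretch sensing at the Z-disc and at titin. Xirp1 and Xirp2 encode Xin repeat proteins, which bind actin filaments at the intercalated disc, the junction between cardiomyocytes, and at the Z-disc. Nmrk2 encodes a muscle kinase that turns nicotinamide riboside into a precursor of NAD and is raised in several mouse models of heart failure.

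Promoter sequence from RefSeq (assembly GRCr8, another build than the rn7 of the deposited counts) was held for Ankrd23, Xirp1, Xirp2, Fhl1 and Nmrk2. Stretches before the gene start are shown for 3 of them, because Ankrd23 had the largest differences from Sham among the 7 genes and the Xin pair went in opposite directions in MI_soft and MI. Capitals mark the M-CAT element (CATTCC, bound by TEAD factors) in Ankrd23 and the MEF2 box in Xirp1 and Xirp2. Both strands were searched. The Ankrd23 and Xirp2 stretches stop short of the start from which positions are counted, where the annotated gene already begins.
Ankrd23, chr9:46274579-46274760, minus strand: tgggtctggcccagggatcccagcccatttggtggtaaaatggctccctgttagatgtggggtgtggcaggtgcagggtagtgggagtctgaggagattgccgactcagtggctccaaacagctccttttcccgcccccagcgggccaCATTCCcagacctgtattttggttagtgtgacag
Xirp1, chr8:128635012-128635261, minus strand: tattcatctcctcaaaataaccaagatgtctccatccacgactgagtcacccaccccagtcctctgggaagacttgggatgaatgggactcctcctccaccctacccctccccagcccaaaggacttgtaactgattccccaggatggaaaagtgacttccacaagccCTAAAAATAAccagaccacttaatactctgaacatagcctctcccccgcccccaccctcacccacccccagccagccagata
Xirp2, chr3:72533936-72534174, plus strand: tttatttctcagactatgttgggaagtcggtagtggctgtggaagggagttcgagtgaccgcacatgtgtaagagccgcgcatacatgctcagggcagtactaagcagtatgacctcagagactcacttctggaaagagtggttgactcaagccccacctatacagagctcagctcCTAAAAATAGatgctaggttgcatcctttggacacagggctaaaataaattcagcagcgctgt

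The MEF2 box, the binding sequence of a family of muscle transcription factors, was found in 3.29% of 33469 rat promoter windows of 300 bases. It lay at -82 to -73 in the Xirp1 stretch and at -74 to -65 in the Xirp2 stretch, counted from the gene start. The AP-1 element (TGANTCA), found in 7.33% of windows, was also in both stretches, at -208 to -202 in Xirp1 and at -107 to -101 in Xirp2. Counted from another Xirp1 start, with an overlapping window, the same MEF2 box lay at -90 to -81 and the same AP-1 element at -216 to -210. A further Xirp1 window, at yet another start of the gene, held neither. The CATTCC of Ankrd23 lay at -102 to -97, and these letters were in 14.2% of windows. A CArG box, present in 1.64% of windows, was in 1 of the 2 windows of Fhl1, and the window of Nmrk2 held none of the 4 elements. A match of letters is a description of the window and not a mapped site.

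The libraries held between 10940685 and 14456186 expected counts. Counts per library ran between 48 and 191 for Nmrk2, the most thinly counted of the 7 genes, and between 24286 and 83788 for Ankrd1. Some libraries stood apart. MI 2, MI 3, MI 4 and MI_soft 4 had between 10470 and 11785 genes with a count, fewer than the 12019 to 12820 of the other 12. MI 1 had 12820, and it also carried skeletal muscle transcripts: 10 skeletal muscle markers summed to 3048 TPM (a transcript level scaled for gene length and library total) in MI 1 and to between 57.9 and 111 TPM in MI 2, MI 3 and MI 4. The same sum was 17.1 to 43.5 TPM in MI_stiff, 64.6 to 442 TPM in MI_soft, highest in MI_soft 2, and 2.42 to 4.35 TPM in Sham. The myogenic factors Myod1 and Myog were at 6.84 and 13.3 TPM in MI 1, at 0.44 and 1.26 TPM in MI_soft 2 and at 0 in all MI_stiff libraries. In the remaining libraries Myog was at 0 and Myod1 reached at most 0.35 TPM, in MI 4. Xin proteins, Csrp3, Fhl1 and Nmrk2 are among the members also made in skeletal muscle, and the list is not meant as complete. Ankrd23, too, was highest of the MI libraries in MI 1, at 164 TPM against 50.9 to 94.5 TPM. Without MI 1 and MI_soft 4 its log2 difference in MI against Sham was 2.87. The part of these transcripts in the members' values was not tested, and the values of Xirp1, Csrp3 and Ankrd2 that turn on MI 1 are given with and without it.

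All libraries had the transcripts of heart muscle. The 8 cardiomyocyte contractile markers (troponins, myosin chains, cardiac actin and myosin-binding protein C) summed to 12039 to 24256 TPM in MI_stiff, 19254 to 26829 TPM in MI_soft, 12942 to 22850 TPM in MI and 25101 to 39284 TPM in Sham. By the quasi-likelihood test of edgeR, with Benjamini-Hochberg adjustment over all tested genes, 7 of the 8 fell in MI_stiff against Sham, 4 in MI_soft and 6 in MI. Of all tested genes, 8.44%, 9.71% and 16.4% fell in the same order. In bulk tissue, fewer cardiomyocytes and less RNA per cardiomyocyte cannot be told apart. The summed fibroblast markers reached 3547 to 6167 TPM in MI_stiff, 2635 to 4775 TPM in MI_soft and 3842 to 7268 TPM in MI, all above the 716 to 973 TPM of Sham. Macrophage markers summed to 319 to 1883 TPM in MI_stiff, 1098 to 2249 TPM in MI_soft, 212 to 909.8 TPM in MI and 55.9 to 79.1 TPM in Sham. Smooth muscle and pericyte markers summed to 195 to 353 TPM in MI_stiff, 374 to 505 TPM in MI_soft, 214 to 845 TPM in MI and 134 to 267 TPM in Sham. Endothelial markers summed to 61.8 to 155 TPM in MI_stiff, 44.0 to 76.5 TPM in MI_soft, 67.1 to 102 TPM in MI and 75.3 to 116 TPM in Sham, and each ligated group overlapped Sham.

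**Figure D1:**
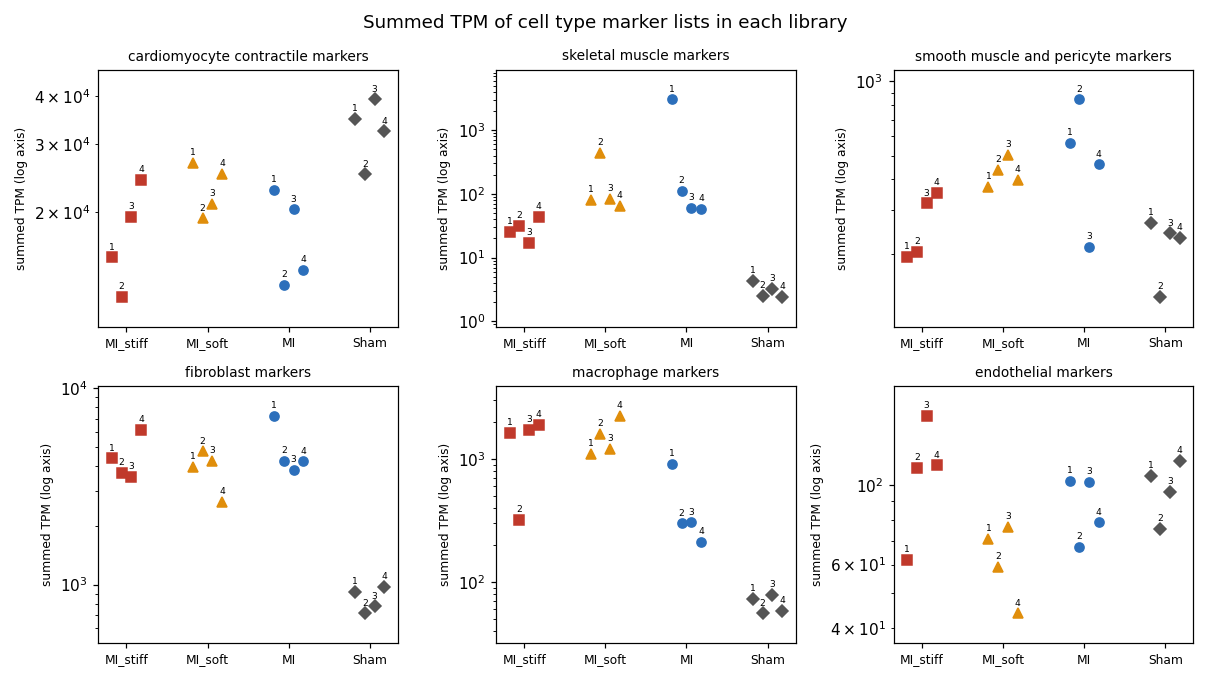
Summed TPM of 6 cell type marker lists in each library, on log axes, for MI_stiff, MI_soft, MI and Sham; each point is 1 library and its number is the replicate in the labels. The cardiomyocyte sum reached its highest value in Sham (39284 TPM), where the lowest library (25101 TPM) overlapped MI_soft, and the skeletal muscle sum of MI 1 (3048 TPM) stood far above the rest.

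Ankrd23 rose and Xirp1 fell in all 3 ligated groups against Sham, Xirp2 and Csrp3 rose in MI_soft and MI, and Nmrk2 was not called in any group. In MI_stiff against Sham, 1 of the 7 genes rose and 1 fell, where 12.7% of all tested genes rose and 8.44% fell (21.2% in all). In MI_soft against Sham, 4 rose and 1 fell, where 16.4% of all tested genes rose and 9.71% fell (26.1% in all). In MI against Sham, 5 rose (Ankrd1, Ankrd23, Xirp2, Csrp3 and Fhl1) and 1 fell, where 20.2% of all tested genes rose and 16.4% fell (36.6% in all). A call is an adjusted p under 0.05. The median log2 difference over the 7 genes was 0.54 in MI_stiff, 0.63 in MI_soft and 0.85 in MI, beside 0.02, 0.01 and 0.06 over all tested genes. These 3 comparisons share the Sham libraries, so the calls are not independent of each other. When the low-detection libraries were left out, with MI 1 as the only MI library, 5 of the 7 genes were called in MI_stiff against Sham, 6 in MI_soft and 3 in MI, where 43.5%, 39.2% and 29.1% of all tested genes were called. The lone MI library is there assumed to vary like the libraries of the other groups, and MI 1 is the one with skeletal muscle transcripts. In MI the 3 were Ankrd23, Xirp2 and Xirp1, while Ankrd1 (edgeR adjusted p = 0.344), Csrp3 (0.195) and Fhl1 (0.118) were not called.

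**Figure D2:**
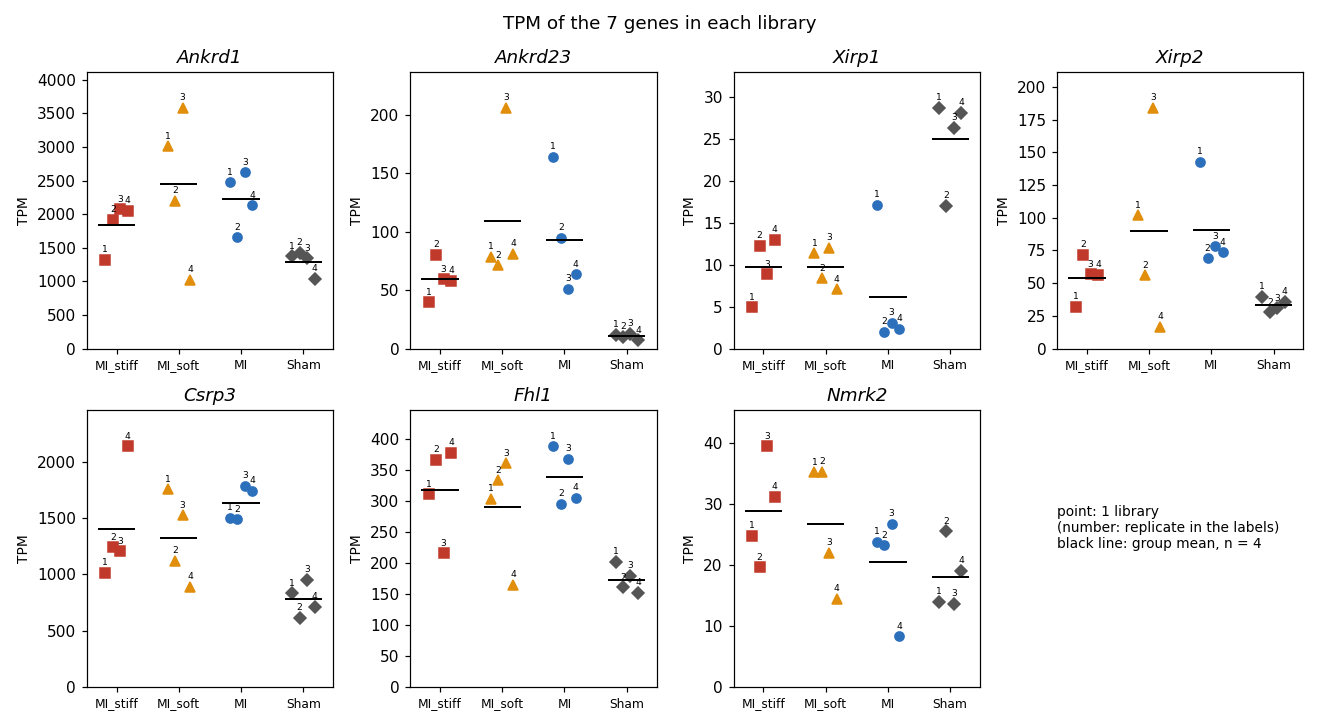
TPM of the 7 genes in each library, by group, with 1 point per library, the replicate number above it and a black line at the group mean (n = 4). All ligated libraries lay above Sham for Ankrd23, and all but MI 1 lay below Sham for Xirp1.

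Ankrd23 had the largest differences of the 7 genes. It stood at 39.6, 80.05, 59.3 and 57.9 TPM in MI_stiff, at 78.1, 71.2, 206 and 80.9 TPM in MI_soft, at 164, 94.5, 50.9 and 63.6 TPM in MI and at 11.8, 9.97, 12.4 and 7.12 TPM in Sham. Every ligated library was above every Sham library, while the 3 ligated groups overlapped. The log2 difference on the counts was 2.23 ± 0.34 (SE) in MI_stiff, 3.24 ± 0.36 in MI_soft and 3.03 ± 0.35 in MI, with edgeR adjusted p = 0.000206, 6.8e-06 and 7.75e-06. As folds these were 4.68, 9.45 and 8.18. Its rise was called in each of the alternative analyses and without each library in turn, with log2 differences between 1.97 and 2.33 for MI_stiff, 2.89 and 3.41 for MI_soft and 2.87 and 3.21 for MI when 1 library was left out.

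Ankrd1, the better known cardiac member of the ankyrin repeat family, was far more abundant and changed far less. It measured 1319, 1912, 2071 and 2050.4 TPM in MI_stiff, 3011, 2201, 3579 and 1026 TPM in MI_soft, 2476, 1656, 2621 and 2131 TPM in MI, and 1371, 1421, 1340.3 and 1039 TPM in Sham. All MI libraries were above all Sham libraries in TPM, MI_soft spanned the widest range, and MI_stiff 1 and MI_soft 4 lay within or below Sham. The log2 difference on the counts was 0.19 ± 0.25 (SE, edgeR adjusted p = 0.652) in MI_stiff, 0.70 ± 0.25 (0.0483) in MI_soft and 0.72 ± 0.25 (0.0347) in MI. In CPM (counts scaled to a common library total, not corrected for length) the groups overlapped in all 3 comparisons. Single libraries decided the calls. In MI against Sham the adjusted p was 0.0778 without MI 3, 0.0858 without MI 4, 0.0771 without Sham 1, 0.0742 without Sham 3 and 0.108 without Sham 4. In MI_soft against Sham the call held only without MI 1, MI 2, MI 3, MI_soft 4 or Sham 2, and leaving out any of the other 11 libraries gave adjusted p-values between 0.054 and 0.147.

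The TPM ratio of Ankrd1 to Ankrd23 shows the shift within the family. It was 33.3, 23.9, 34.9 and 35.4 in MI_stiff, 38.5, 30.9, 17.4 and 12.7 in MI_soft, 15.1, 17.5, 51.5 and 33.5 in MI, and 116, 143, 108 and 146 in Sham. All 12 ligated libraries were under all 4 Sham libraries, and the ligated groups overlapped. The third family member, Ankrd2 (ARPP), had no count in any Sham library. Its 4 libraries together held 58 counts in MI_stiff, 98 in MI_soft and 311 in MI. Taking 3 counts over the Sham group as the floor, Ankrd2 was at least 17.3-fold higher in MI_stiff, at least 29.8-fold higher in MI_soft and at least 102-fold higher in MI, with edgeR adjusted p = 0.00683, 0.00246 and 0.000369. MI 1 held 203 of the 311 counts of MI, where skeletal muscle markers were also highest, and MI 3 held 3. Without MI 1 the bound for MI was 52.5-fold, from 108 counts.

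Xirp1 and Xirp2, related Xin repeat genes, moved in opposite directions in MI_soft and MI. Xirp1 was at 4.92, 12.3, 8.86 and 12.9 TPM in MI_stiff, 11.3, 8.37, 12.02 and 7.07 TPM in MI_soft, 17.1, 2.02, 3.08 and 2.38 TPM in MI, and 28.6, 17.0, 26.3 and 28.0 TPM in Sham. All MI_stiff and MI_soft libraries were below all Sham libraries, and so were MI 2, MI 3 and MI 4, while MI 1 was level with the lowest Sham library. In CPM, where MI 1 stood at 79.2 and the Sham libraries between 132 and 173, no ligated library overlapped Sham. The TMM factors in these CPM values were 1.25 for MI 1 and 0.759 for Sham 2, the lowest Sham library. The log2 difference of Xirp1 was -1.66 ± 0.40 (SE) in MI_stiff, -1.41 ± 0.40 in MI_soft and -2.24 ± 0.41 in MI, with edgeR adjusted p = 0.00656, 0.014 and 0.000451. Without MI 1 the difference in MI was -3.11, and with MI 1 as the only MI library it was -0.99. With limma on log2(TPM + 0.1) the fall was not called in MI_stiff (-1.41, adjusted p = 0.062) or MI_soft (-1.36, 0.0701).

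Xirp2 was at 31.7, 71.5, 56.7 and 56.5 TPM in MI_stiff, 102, 56.1, 184 and 16.7 TPM in MI_soft, 143, 69.05, 78.1 and 73.7 TPM in MI, and 39.8, 27.8, 30.8 and 35.7 TPM in Sham. In TPM all MI libraries were above Sham, MI_stiff 1 was within Sham, and MI_soft 4 was below it. In CPM all MI_stiff libraries (487 to 966) were above Sham (299 to 366), and MI_soft 4, at 332, was within Sham. The log2 difference was 0.93 ± 0.34 (SE, edgeR adjusted p = 0.0612) in MI_stiff, 1.47 ± 0.34 (0.0045) in MI_soft and 1.88 ± 0.35 (0.000535) in MI. The MI_stiff value crossed the threshold without MI_soft 4 (adjusted p = 0.00904) or MI_soft 3 (0.0281), both of a group outside this comparison. In CPM the 4 MI libraries were close together, 1159 to 1360, whereas MI_soft spread over 332 to 1664.

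The TPM ratio sets the pair side by side in each library. Xirp2 over Xirp1 was 6.44, 5.83, 6.397 and 4.36 in MI_stiff, 8.99, 6.70, 15.3 and 2.36 in MI_soft, 8.34, 34.2, 25.4 and 31.0 in MI, and 1.39, 1.64, 1.17 and 1.27 in Sham. The lowest ligated library, MI_soft 4, was above the highest Sham library. MI 2, MI 3 and MI 4 were above every hydrogel library, and MI 1 was among them. The group means were 5.76 ± 0.97 in MI_stiff, 8.34 ± 5.40 in MI_soft, 24.7 ± 11.5 in MI and 1.37 ± 0.20 in Sham (SD, n = 4 each).

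**Figure D3:**
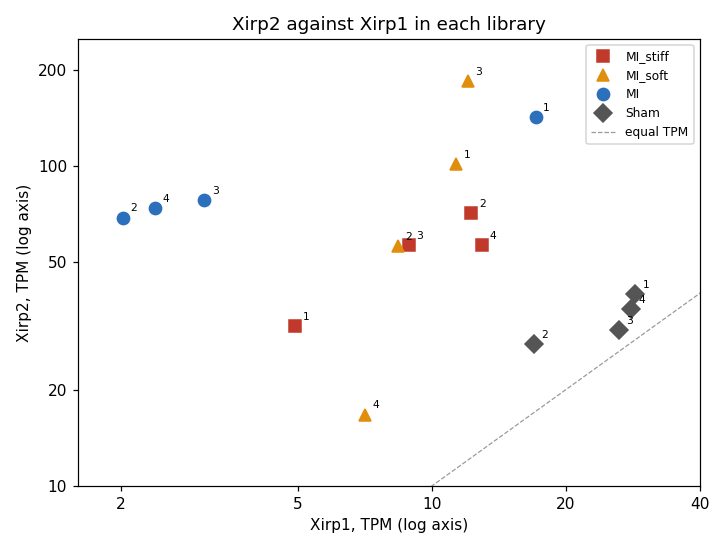
TPM of Xirp2 against TPM of Xirp1 in each library, both on log axes, with the replicate number beside each point and a dashed line where both are equal. The 4 Sham libraries lay nearest to the line, MI 2, MI 3 and MI 4 farthest to the left, and the hydrogel libraries between these along the Xirp1 axis, while MI 1 was level with Sham 2 on that axis.

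Csrp3, loss of which causes dilated cardiomyopathy in mice, was high in every library. It measured 1012, 1241, 1204 and 2138 TPM in MI_stiff, 1755, 1121, 1524 and 886 TPM in MI_soft, 1502, 1489, 1788 and 1740.3 TPM in MI, and 832, 610.1, 951 and 712 TPM in Sham. In TPM all MI and MI_stiff libraries exceeded Sham, as did all MI_soft libraries but MI_soft 4. In CPM every ligated library exceeded Sham, with MI_soft at 774 to 1044 and Sham at 502 to 675. The log2 difference on the counts was 0.54 ± 0.22 (SE, edgeR adjusted p = 0.0855) in MI_stiff, 0.63 ± 0.22 (0.0419) in MI_soft and 1.08 ± 0.22 (0.00112) in MI. In MI_soft the call was lost without MI_soft 1, MI_soft 2, MI_soft 3, MI_stiff 2, MI_stiff 4 or any 1 Sham library, with adjusted p-values between 0.0503 and 0.116. In MI_stiff the adjusted p was 0.0379 without MI 1.

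Fhl1, a LIM domain protein that binds titin, measured 310.2, 367, 216 and 378 TPM in MI_stiff, 304, 333, 360.3 and 165 TPM in MI_soft, 388, 295, 368 and 305 TPM in MI, and 201, 160.3, 179 and 152 TPM in Sham. In TPM, MI_soft 4 was the only ligated library within Sham. In CPM it stood at 526, above the 380 to 515 of Sham, and MI_stiff 3, at 429, was the ligated library within Sham. The log2 difference was 0.57 ± 0.22 (SE, edgeR adjusted p = 0.0756) in MI_stiff, 0.57 ± 0.22 (0.0654) in MI_soft and 0.85 ± 0.22 (0.00687) in MI, so that 1 of the 3 passed the test. The MI_stiff value passed without MI_soft 4 (adjusted p = 0.0385) or MI_stiff 3 (0.0214), and the MI_soft value without the same libraries (0.0317 and 0.0414).

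Nmrk2 was the lowest of the 7 genes in counts. It stood at 24.8, 19.6, 39.5 and 31.2 TPM in MI_stiff, 35.2, 35.3, 22.0 and 14.4 TPM in MI_soft, 23.8, 23.2, 26.8 and 8.30 TPM in MI, and 13.9, 25.6, 13.6 and 19.0 TPM in Sham. The groups overlapped in all comparisons. The log2 difference was 0.33 (95% interval -0.45 to 1.11) in MI_stiff, 0.36 (-0.42 to 1.14) in MI_soft and 0.07 (-0.71 to 0.85) in MI, with edgeR adjusted p = 0.573, 0.495 and 0.896. The intervals held 0 and reached above 1 in both hydrogel groups, so that a rise of that size was not excluded there. With limma's library quality weights Nmrk2 rose in MI_soft, by 0.63 (adjusted p = 0.0332).

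The order of the 7 levels, compared in TPM, was the same at the top in all groups: Ankrd1, then Csrp3, then Fhl1. Csrp3 libraries overlapped those of Ankrd1 in MI_stiff, MI_soft and MI, and Fhl1 stood apart below both in all groups. Ankrd23 was last in Sham (10.3 ± 2.38 TPM, SD, n = 4) and in the fourth place in MI_stiff (59.2 ± 16.5), MI_soft (109 ± 64.6) and MI (93.2 ± 50.5), where its libraries overlapped those of Xirp2. Nmrk2 overlapped Xirp1 in Sham and MI and Xirp2 in MI_stiff and MI_soft. Xirp1 was in the fifth place in Sham (25.0 ± 5.44 TPM) and last in MI_stiff (9.75 ± 3.68), MI_soft (9.70 ± 2.36) and MI (6.15 ± 7.32).

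Since contractile transcripts fell with ligation, the same differences were also taken relative to the 8 cardiomyocyte markers. This scaling moved the median of all tested genes to 1.32 in MI_stiff, 0.87 in MI_soft and 1.11 in MI against Sham on the log2 scale, so values are to be read against those shifts. Ankrd1, Ankrd23, Xirp2, Csrp3, Fhl1 and Nmrk2 then rose in all 3 ligated groups by edgeR, where 65.6%, 43.7% and 54.1% of all tested genes rose. Ankrd23 had log2 differences of 3.60 ± 0.47 (SE) in MI_stiff, 4.12 ± 0.48 in MI_soft and 4.13 ± 0.48 in MI, all above the shift of the median. Xirp2 was next in each group, with 2.29 ± 0.46, 2.43 ± 0.47 and 2.93 ± 0.48 in the same order. Csrp3 had 1.85 ± 0.28, 1.48 ± 0.27 and 2.14 ± 0.28, Fhl1 1.93 ± 0.35, 1.47 ± 0.34 and 1.89 ± 0.35, and Ankrd1 1.497 ± 0.35, 1.61 ± 0.35 and 1.73 ± 0.35. Nmrk2, at 1.57 ± 0.44, 1.204 ± 0.44 and 1.11 ± 0.44, was within 1 SE of the median of all genes in each group. Without Myh6, the marker that fell most, Nmrk2 rose in MI_stiff but was not called in MI_soft or MI, where 59.2%, 31.4% and 41.9% of all tested genes rose.

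Xirp1 was the exception on this scale too. Its difference was -0.31 ± 0.43 (SE, edgeR adjusted p = 0.536) in MI_stiff, -0.54 ± 0.43 (0.322) in MI_soft and -1.17 ± 0.44 (0.028) in MI, under the shifted median in each, and the last was a call in the direction taken by 3.04% of all tested genes. As TPM in percent of the geometric mean of the cardiomyocyte markers, Xirp1 was 1.01 ± 0.57 in MI_stiff, 0.792 ± 0.198 in MI_soft, 0.512 ± 0.471 in MI and 1.22 ± 0.098 in Sham (SD, n = 4 each). Ankrd23 was 6.402 ± 3.79, 9.06 ± 5.77, 9.16 ± 3.91 and 0.520 ± 0.149 percent in the same groups. Relative to the geometric mean of the markers, Xirp1 thus stayed within a narrow range in Sham, 1.12 to 1.33 percent. It ran lower in 3 MI libraries, with a median of 0.279 percent over the 4. These percentages are not shares of the summed contractile transcripts.

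**Figure D4:**
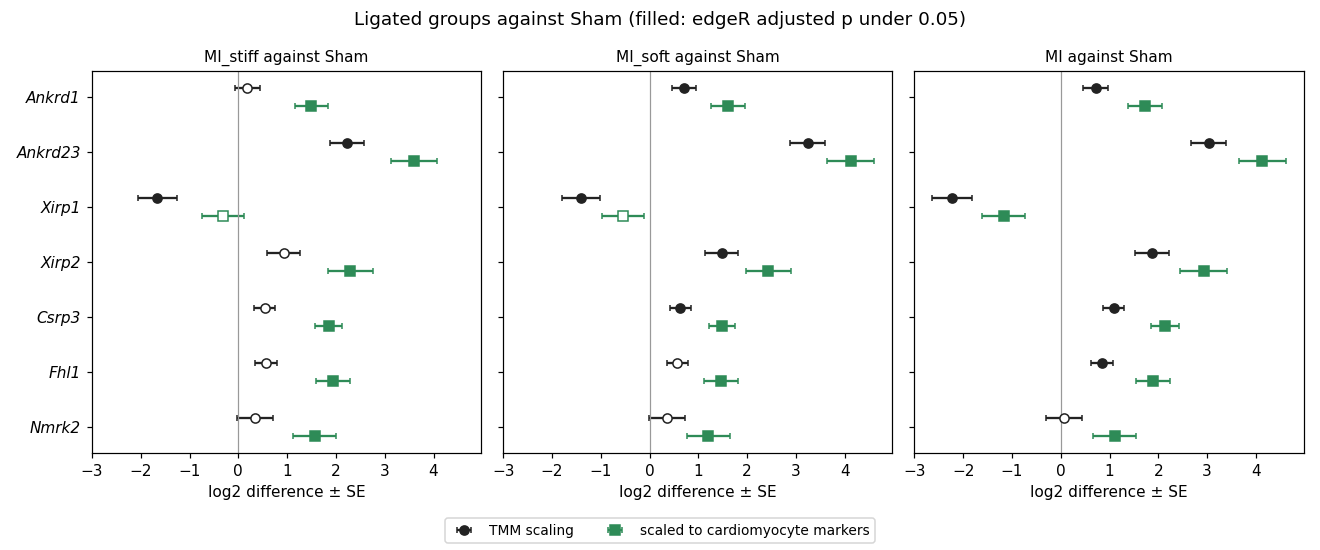
Log2 differences ± SE of the 7 genes in MI_stiff, MI_soft and MI against Sham from edgeR, with TMM scaling (circles) and scaled to the 8 cardiomyocyte markers (squares); filled symbols passed an adjusted p of 0.05. Xirp1 is the only gene left of 0 in all 3 panels, and the second scaling moves every gene to the right.

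Between the hydrogels and untreated infarcts, none of the 7 genes passed the test with all 16 libraries. In MI_stiff against MI, 1.19% of all tested genes were called. In edgeR, 3 of the 7 had an unadjusted p under 0.05, as did 1938 of all 11376 tested genes. DESeq2 gave 4 such genes among the 7 and 2149 among all 11376. After adjustment it called none of the 7 and 5.12% of all tested genes. The 3 in edgeR were Xirp2 (-0.95, 95% interval -1.67 to -0.24, edgeR adjusted p = 0.166), Ankrd23 (-0.80, -1.50 to -0.11, 0.223) and Csrp3 (-0.54, -0.996 to -0.0807, 0.219). In CPM all MI_stiff libraries of Xirp2 (487 to 966) lay under all MI libraries (1159 to 1360). Xirp2 was the only one of the 7 without overlap in CPM, where 7.88% of all tested genes had none. In TPM Xirp2 overlapped as well, with MI_stiff 2 at 71.5 and MI 2 at 69.05. Ankrd1 had -0.53 (-1.06 to 0.0012, 0.294), and Fhl1 -0.28 (-0.74 to 0.19, 0.539). Xirp1, at 0.58 (-0.25 to 1.40, 0.465), and Nmrk2, at 0.26 (-0.52 to 1.04, 0.755), had positive values.

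In MI_soft against MI, 0.0264% of all tested genes were called. In edgeR, 1 of the 7 had an unadjusted p under 0.05, as did 1761 of all 11376 tested genes. DESeq2 gave 2 such genes among the 7 and 1968 among all 11376. After adjustment it called none of the 7 and 2.58% of all tested genes. The 1 in edgeR was Xirp1, at 0.83 (95% interval 8e-04 to 1.65, edgeR adjusted p = 0.323). Csrp3 had -0.45 (-0.91 to 0.0037, 0.326) and Xirp2 -0.40 (-1.11 to 0.31, 0.582). The interval of Ankrd1, around -0.01, ran between -0.54 and 0.52. Those of Ankrd23 (0.21, -0.48 to 0.90), Fhl1 (-0.28, -0.74 to 0.19) and Nmrk2 (0.29, -0.49 to 1.06) also held 0.

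MI 1 decided the outcome for Xirp1 and Csrp3. Its Xirp1 level, 79.2 CPM, was above the 32.4 to 69.7 CPM of MI_stiff and the 53.3 to 65.2 CPM of MI_soft, whereas MI 2, MI 3 and MI 4 lay between 15.1 and 21.1 CPM, below all 8 hydrogel libraries. Without MI 1, Xirp1 rose by 1.45 in MI_stiff and by 1.70 in MI_soft against MI on the log2 scale (edgeR adjusted p = 0.00206 and 0.000633). Csrp3 then had -0.71 in MI_stiff and -0.62 in MI_soft (0.0289 and 0.0444). In that analysis 10.7% of all tested genes were called in MI_stiff against MI and 13.2% in MI_soft against MI. Xirp2 fell in MI_stiff without MI_soft 4 (0.0397). With MI 1 and the low-detection MI_soft 4 both left out, 3 of the 7 genes were called in MI_stiff against MI (Xirp1 up, Csrp3 and Xirp2 down) and 2 in MI_soft against MI (Xirp1 up, Csrp3 down), where 20.7% and 18.1% of all tested genes were called. The 3 MI libraries that remain are those with the fewest genes detected. With MI 1 as the only MI library, the sign of Xirp1 turned, to -0.65 in MI_stiff and -0.41 in MI_soft. Csrp3 turned as well, to 0.14 and 0.24.

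Between the hydrogels, in MI_stiff against MI_soft, 0.0967% of all tested genes were called and none of the 7 genes. Ankrd23 alone of the 7 had an unadjusted p under 0.05 in edgeR, as did 1631 of all 11376 tested genes. DESeq2 gave 2 such genes among the 7 and 1801 among all 11376. After adjustment it called none of the 7 and 2.48% of all tested genes. Ankrd23 was lower in MI_stiff by edgeR's estimate of -1.01 (95% interval -1.71 to -0.32, adjusted p = 0.197). Its MI_stiff 2 level, at 227 CPM, overlapped MI_soft, at 190 to 494 CPM. Ankrd1 had -0.52 (-1.05 to 0.01, 0.357) and Xirp2 -0.55 (-1.26 to 0.16, 0.464). The intervals of Xirp1 (-0.25, -1.07 to 0.57), Csrp3 (-0.08, -0.54 to 0.37), Fhl1 (0, -0.46 to 0.46) and Nmrk2 (-0.02, -0.80 to 0.75) held 0. Scaled to the cardiomyocyte markers, none of the 7 genes was called in MI_stiff against MI_soft, in MI_stiff against MI or in MI_soft against MI, where 0.114%, 0.422% and 0% of all tested genes were called.

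**Figure D5:**
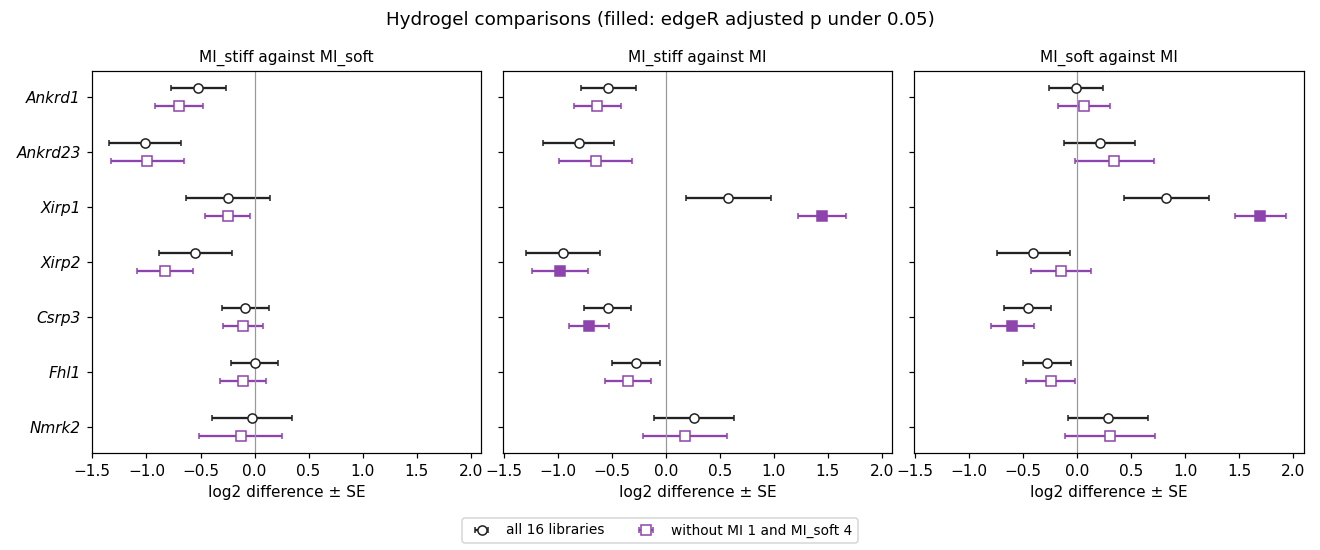
Log2 differences ± SE of the 7 genes for MI_stiff against MI_soft, MI_stiff against MI and MI_soft against MI from edgeR, with all 16 libraries (circles) and without MI 1 and MI_soft 4 (squares); filled symbols passed an adjusted p of 0.05. Filled squares are Xirp1, Xirp2 and Csrp3 against MI in the MI_stiff panel and Xirp1 and Csrp3 in the MI_soft panel, and no circle is filled.

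Of 19 other Z-disc genes tested, 0 rose and 6 fell in MI_stiff against Sham, 3 rose and 3 fell in MI_soft, and 5 rose and 8 fell in MI, with median log2 differences of -0.53, -0.09 and -0.27. In the same order, 12.7%, 16.4% and 20.2% of all tested genes rose, and 8.44%, 9.71% and 16.4% fell. In MI, Fhod3, a formin that assembles sarcomeric actin, fell by 1.83 ± 0.31 (SE, edgeR adjusted p = 0.000231). Nexn (nexilin) fell by 1.94 ± 0.35 (0.000442). Pdlim3, a PDZ and LIM protein bound to actinin, rose by 1.22 ± 0.21 (0.000313). Pdlim3 was also the 1 gene of this list called between a hydrogel and MI, at -0.89 ± 0.21 in MI_stiff (0.0462). That call was lost in 23 of 30 alternative analyses, among them those without MI 2 (0.136), MI 4 (0.111), any 1 MI_stiff library (0.0506 to 0.156), any 1 Sham library (0.0548 to 0.0666) or MI_soft 1, MI_soft 2 or MI_soft 3 (0.0564 to 0.0633).

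Among the 7 tested genes of the ankyrin repeat family and the titin N2A partners, 1 rose and 4 fell in MI_stiff, 1 rose and 3 fell in MI_soft, and 1 rose and 4 fell in MI. The 1 that rose in each was Ankrd2. Mypn (myopalladin, an Ankrd1 partner at the Z-disc) fell by 1.36 ± 0.19 in MI (SE, edgeR adjusted p = 4.63e-05) and Smyd1, a muscle methyltransferase, fell by 2.18 ± 0.31 (4.93e-05). Of 7 other LIM-only proteins, 2 rose and 4 fell in MI_stiff, 2 rose and 2 fell in MI_soft, and 2 rose and 5 fell in MI. Beside both lists, 12.7%, 16.4% and 20.2% of all tested genes rose, and 8.44%, 9.71% and 16.4% fell, in the same order. Fhl2, the cardiac relative of Fhl1, fell by 1.71 ± 0.21 in MI (1.2e-05), opposite to Fhl1, with 350 ± 139 TPM in MI and 1084 ± 333 TPM in Sham (SD, n = 4 each). Csrp2 and Csrp1, the smooth muscle relatives of Csrp3, rose by 3.48 ± 0.47 (3.2e-05) and 2.07 ± 0.31 (7.53e-05).

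Xin partners and other intercalated disc genes fell where they were called, as Xirp1 did. Of 12 tested, none rose in any ligated group, while 5 fell in MI_stiff, 6 in MI_soft and 7 in MI, with medians of -0.89, -0.83 and -0.99. In the same order, 12.7%, 16.4% and 20.2% of all tested genes rose, and 8.44%, 9.71% and 16.4% fell. In MI, Gja1 (connexin 43) fell by 2.14 ± 0.31 (SE, edgeR adjusted p = 6.19e-05), Cdh2 (N-cadherin) fell by 1.42 ± 0.28 (0.000943) and Dsg2 (desmoglein 2) fell by 3.71 ± 0.88 (0.00353). Relative to the cardiomyocyte markers, Cdh2 was not called in MI (-0.40, 0.372), and neither were Fhod3 (-0.79, 0.0744), Nexn (-0.88, 0.0817) and Mypn (-0.32, 0.31). These values lay below the median of all tested genes on that scale, 1.11. The falls of Gja1, Dsg2, Fhl2 and Smyd1 in MI were called in all 30 alternative analyses, that scaling among them. Of 17 genes of NAD synthesis and use, 3 rose and 4 fell in MI_stiff, 4 rose and 3 fell in MI_soft, and 2 rose and 3 fell in MI. These counts stand beside the same shares of all tested genes. Nadk, which phosphorylates NAD, rose by 1.26 ± 0.15 in MI (8.84e-06). Nnt, the mitochondrial transhydrogenase, fell by 2.05 ± 0.30 (7.36e-05), and Parp1, a consumer of NAD, fell by 1.43 ± 0.22 (9.62e-05), a call that was lost relative to the cardiomyocyte markers (-0.39, 0.191).

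Of 20 other genes known to respond to stretch and load, 7 rose and 1 fell in MI_stiff against Sham, 11 rose and 2 fell in MI_soft, and 11 rose and 2 fell in MI, with medians of 0.27, 0.81 and 0.91. In the same order, 12.7%, 16.4% and 20.2% of all tested genes rose, and 8.44%, 9.71% and 16.4% fell. Nppa, the atrial natriuretic peptide, stood at 3509 ± 1475 TPM in MI_stiff, 7513 ± 4045 TPM in MI_soft, 6674 ± 1083 TPM in MI and 144 ± 96.9 TPM in Sham (SD, n = 4 each). Ccn2, a matricellular YAP target, stood at 215 ± 44.5, 475 ± 283, 319 ± 74.1 and 24.2 ± 8.74 TPM in the same groups. In MI_stiff against MI, 4 of the 20 fell and none rose, where 0.694% of all tested genes fell and 0.492% rose, and the median of the 20 was -0.40. The list was chosen with earlier results of these data known, so this count is a description and no test of the list. The 4 were Uchl1, a ubiquitin hydrolase (-2.02 ± 0.40 SE, edgeR adjusted p = 0.025), Ccn1 (-1.28 ± 0.25, 0.0255), Fos (-1.84 ± 0.41, 0.0391) and, named to complete the count, Nppb (-1.11 ± 0.25, 0.0423). Smooth muscle markers moved beside them, with Tagln, Cnn1 and Actg2 lower in MI_stiff than in MI (3 of 6 tested), and so did the skeletal muscle light chain Myl1 (-3.24 ± 0.65, 0.0255). Their part in these values was not tested, and the calls of Tagln, Cnn1, Actg2 and Myl1 were themselves lost in 13 to 22 of the 30 alternative analyses. The calls of Uchl1, Ccn1 and Fos were lost in 11, 12 and 17 of 30 alternative analyses with the sign kept. Leaving out MI 2, MI 4, MI_stiff 2, MI_stiff 3 or MI_stiff 4 each ended all 3 calls, with edgeR adjusted p-values between 0.0514 and 0.124, and that of Fos was also lost without MI 3, MI_soft 1, MI_soft 2, Sham 1, Sham 2 or Sham 3 (0.0501 to 0.0591). The call of Nppb was lost in 21, among them those without MI 2, MI 4, MI_soft 1, MI_soft 2, MI_soft 3, Sham 1, Sham 2, Sham 3 or any 1 MI_stiff library (0.0526 to 0.141). In MI_soft against MI and in MI_stiff against MI_soft, no gene of these lists was called.

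Over the 16 libraries, the 7 genes did not move as a unit. As a description, Pearson's r of log2 CPM between pairs of them ran between -0.84 (Xirp1 with Csrp3) and 0.86 (Ankrd1 with Xirp2). After group means were subtracted, these pairs had r of -0.49 and 0.80. Ankrd1 and Ankrd23, of one family, had 0.64 over the libraries and 0.14 within groups, and Xirp1 and Xirp2 had -0.65 and 0.12. Libraries of one group share their treatment, and all pairs share depth and scaling.

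The genes most like each member over the 16 libraries, by r of log2 CPM with the value within groups after it, were as follows. Ankrd1 went with Wee1 (0.86, 0.78), Xirp2 (0.86, 0.80) and Glmn (0.86, 0.74). Ankrd23 went with C1r (0.95, 0.48), Mxra8 (0.95, 0.50) and Ltbp2 (0.95, 0.45), of which Ltbp2 encodes a matrix protein. Xirp1 went with Ogdh (0.98, 0.93), a dehydrogenase of the tricarboxylic acid cycle, and LOC103693780 (0.98, 0.93). Xirp2 went with Trip11 (0.94, 0.82), Prss23 (0.92, 0.77) and Emp1 (0.92, 0.80). Csrp3 went with Anxa5 (0.94, 0.86), Eef1b2 (0.93, 0.75) and Mllt11 (0.92, 0.78). Fhl1 went with Tspan6 (0.95, 0.89), MGC94199 (0.93, 0.84) and the proteoglycan Dcn (0.92, 0.82). Nmrk2 had the lowest likeness, with Pole (0.80, 0.80), Npl (0.76, 0.80) and Phf19 (0.70, 0.65). Of these pairs, Ankrd1 with Xirp2 was the 1 between members. The likeness of Ankrd23 to its 3 genes was low within groups, where that of Xirp1 to Ogdh and LOC103693780 stayed above 0.9.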

How the data were processed

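Per the labels' protocols, mRNA purified from total RNA of the infarct zone was made into libraries with a NEBNext Ultra kit and sequenced on an Illumina HiSeq instrument. The authors deposited expected counts (estimated reads per gene) and TPM. Per the submitters' processing notes, STAR 2.7.3a, RSEM 1.3.1 and build rn7 were used. The sources used here give neither annotation nor strand setting. The counts, of which 0.785% were not whole, were rounded, filtered by edgeR's default to 11376 of 17085 genes, scaled by TMM and tested by edgeR 4.0.16 (R 4.3.3) with robust quasi-likelihood, each group as a coefficient in one fit of all 16 libraries. Standard errors came from the F statistic and 95% intervals from its 17.7 total degrees of freedom. P-values had Benjamini-Hochberg adjustment over all tested genes. The common biological coefficient of variation was 0.404. Libraries are named by group and label replicate. Alternatives were DESeq2 1.42.0, limma 3.58.1 (voom, quality weights, log2 of TPM plus 1 or 0.1), other scalings and filters, and leaving libraries out. All 7 members are named, and from each list up to 3 called genes with the smallest adjusted p, given here for MI against Sham and MI_stiff against MI. The script was tested on simulated data. The members and the gene lists were chosen with earlier results of these data known. One gene among those most like the members is not reported here.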

Additional observations from a re-analysis of the deposited data

Results flagged for a closer look

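Among 28 sets of 4 libraries (7 genes in 4 groups), 2 held a library far from its group in CPM, and chance alone gives about 1 in 20 such sets. Xirp1 stood at 79.2 CPM in MI 1, against 15.1 to 21.1 CPM in the other MI libraries, a gap of 0.906 of the group's range. Xirp2 stood at 966 CPM in MI_stiff 2, against 487 to 563 CPM in the other MI_stiff libraries, a gap of 0.843 of the range. MI 1 also had the highest skeletal muscle marker sum of all libraries (3048 TPM), and MI_stiff 2 the lowest cardiomyocyte marker sum (12039 TPM). Whether these bear on the Xin values was not tested.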

How the results depend on the processing

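The number of the 7 genes called in MI_stiff against Sham, 2 as reported, was 4 with DESeq2 or log2(TPM + 1), 5 with library quality weights, with only the compared groups, without the low-detection libraries or without MI 1 and MI_soft 4, and 6 with either cardiomyocyte scaling. The share of all tested genes called there was 21.2% as reported, 26.1% with DESeq2, 20% with log2(TPM + 1), 45.6% with quality weights and 40.6% with only the compared groups. It was 43.5% without the low-detection libraries, 33.3% without MI 1 and MI_soft 4, and 65.8% and 59.4% with the scalings. In MI_soft against Sham, 5 as reported, the number of the 7 genes called was 3 with DESeq2's size factors in edgeR (26.6% of all tested genes), no filter (19.1%) or log2(TPM + 1) (20.7%). It was also 3 with the replicate block (22.6%) or a library size without mitochondrial genes (26.7%), and 2 with log2(TPM + 0.1) (18.8%). It was 7, Nmrk2 among them, with quality weights (53.8% of all tested genes, 26.1% as reported), and 6 with cardiomyocyte scaling (44.4%), without the low-detection libraries (39.2%) or without MI 1 and MI_soft 4 (29.4%). In MI against Sham, 6 as reported, it was 3 without the low-detection libraries (29.1% of all tested genes, 36.6% as reported). Between ligated groups, 0 as reported, quality weights called 1 (Xirp1 up) in MI_soft against MI, where 3.59% of all tested genes were called (0.0264% as reported), and 1 (Ankrd1 down) in MI_stiff against MI_soft, where 4.47% were (0.0967% as reported). Without MI 1 and MI_soft 4, 2 were called in MI_soft against MI and 3 in MI_stiff against MI, where 18.1% and 20.7% of all tested genes were called. Leaving out 1 library gave 2 to 4 in MI_stiff against Sham, 3 to 6 in MI_soft against Sham, 5 to 6 in MI against Sham, 0 to 2 in MI_stiff against MI and in MI_soft against MI, and 0 to 0 in MI_stiff against MI_soft. The share of all tested genes called then ran over 14.9% to 28.4%, 19% to 29.4% and 29.1% to 44.4% against Sham. It ran over 0.0967% to 10.7%, 0% to 13.2% and 0.0352% to 0.501% in the other 3, in the same order. The causes of these moves were not tested.

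The following log2 differences changed sign. In MI against Sham, Nmrk2 was -0.0415 with quality weights, -0.20 without the low-detection libraries and between -0.11 and 0.48 without single libraries. In MI_soft against MI, Ankrd1 was 0.0808 with quality weights, 0.0219 with either TPM fit, 0.52 without the low-detection libraries, 0.0647 without MI 1 and MI_soft 4, and -0.17 to 0.16 without single libraries. Ankrd23 was -0.0079 with cardiomyocyte scaling, -0.21 without the low-detection libraries and -0.14 to 0.37 without single libraries. Without the low-detection libraries, Xirp1 was -0.41, Csrp3 0.24 and Fhl1 0.0644 in MI_soft against MI, and Xirp1 was -0.65 and Csrp3 0.14 in MI_stiff against MI. Fhl1 in MI_stiff against MI was 0.0434 with cardiomyocyte scaling and 0.24 without Myh6 among the markers. In MI_stiff against MI_soft, cardiomyocyte scaling gave 0.24 for Xirp1, 0.37 for Csrp3 and 0.36 for Nmrk2, and without Myh6 0.038 for Ankrd1, 0.38 for Xirp1, 0.0227 for Xirp2, 0.51 for Csrp3 and 0.49 for Nmrk2. Csrp3 there was 0.0704 with either TPM fit. Nmrk2 was 0.0098 with DESeq2's size factors or voom, 0.0099 with DESeq2, 0.003 with no filter, 0.14 and 0.15 with the TPM fits, 0.0259 with the replicate block, 0.0045 without mitochondrial genes, and -0.17 to 0.15 without single libraries.

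The replicate numbers did not pair the libraries: deviations from group means correlated between -0.28 and 0.18 over 24 pairs, 5 of them above 0.1. With the replicate block, 2, 3 and 6 of the 7 genes were called in MI_stiff, MI_soft and MI against Sham, where 18.3%, 22.6% and 33.3% of all tested genes were called. Elsewhere it was 0 of the 7, beside 0.299% of all tested genes in MI_stiff against MI, 0% in MI_soft against MI and 0.0264% in MI_stiff against MI_soft. Mitochondrial genes have no name starting with Mt- in the table, so the planned analysis by that name could give no other value and was not run. That analysis by the names in use, the marker list without Myh6, the joint removal of MI 1 and MI_soft 4 and the Ankrd2 bound without MI 1 were chosen after seeing the data. Nmrk2 had the fewest counts of the 7 genes, 48 to 191 in a library, and so the largest counting error.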
